A study of Mus musculus with 12 samples.

Results

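Alveolar type II nuclei, the nuclei of the lung epithelial cells that make surfactant, were examined in single-nucleus RNA sequencing of 12 mouse lungs. Nuclei were selected on measured UMI counts, and a nucleus was taken as type II when it carried at least 3 UMIs (unique molecular identifiers, which count captured RNA molecules) over at least 2 of the 6 genes Lamp3, Slc34a2, Acoxl, Abca3, Tinag and Etv5, and more UMIs from these 6 than from 10 genes of other lung cells (Rtkn2, Scel, Lama3, Sema3a, Dnah3, Dnah5, Gabrp, Crb1, Itga8 and Kit). This rule took 5236 of the 47319 nuclei that passed the filters (11.1%), out of 49163 barcodes, and their sums held 20444548 of 184940649 UMIs. All mice were WT C57BL/6J. At 7 weeks of age they were instilled through the trachea with bleomycin, whose lung injury is followed by acute inflammation and then fibrosis, or with PBS, and from day 5 they were gavaged daily for 5 days with NVP-BHG712, an inhibitor of the receptor tyrosine kinase EphB4, or with its vehicle of N-methyl-2-pyrrolidone and polyethylene glycol. Lungs were collected on day 14 and frozen, and nuclei were sorted by DAPI, a DNA stain, so that no gate selected epithelium. The 4 groups, named PBS_Vehicle, PBS_NVP-BHG712, Bleo_Vehicle and Bleo_NVP-BHG712, had 3 lungs each and 1 library per lung, so that lungs and not nuclei were the replicates. The p-values of genes use a spread estimated over all 12 libraries together, and not that of the 3 animals of a group alone. The comparisons ask what bleomycin changed in type II nuclei, and what the inhibitor changed with and without bleomycin.

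Type II cells are cuboidal cells at the corners of alveoli. They synthesize surfactant lipids and the surfactant proteins, pack them into lamellar bodies, and secrete them to lower surface tension and to bind microbes. They also act as progenitors of the alveolus: after injury they divide and give rise to the flat type I cells that form the gas-exchange surface, passing through a transitional state marked by keratins, integrin alpha v beta 6 and p53 targets, and fibroblast growth factor signals from neighboring mesenchyme help to maintain them.

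Type II nuclei numbered 481, 200 and 187 in PBS_Vehicle replicates 1 to 3, 946, 186 and 213 in PBS_NVP-BHG712, 59, 510 and 1927 in Bleo_Vehicle, and 146, 198 and 183 in Bleo_NVP-BHG712. Their summed depth ran from 212729 UMIs in Bleo_Vehicle replicate 1, the library with the fewest type II nuclei, to 8712281 UMIs in Bleo_Vehicle replicate 3. The median type II nucleus held 1415 to 5649 UMIs and 876 to 2287 genes. At the edge of the rule, 396 type II nuclei (7.56%) carried exactly 3 UMIs of the 6 genes, 690 further nuclei carried 2 UMIs over 2 of them and were left out, and 1356 carried enough of these UMIs but as many or more from the 10 genes of other cells. Among type II nuclei 2 barcode sequences occurred in more than 1 library, at most 1 for any pair of libraries.

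The Bleo_Vehicle libraries stood apart from the other 9, and every comparison with them has to be read with these values. The 6 genes of the rule made up 0.248%, 0.263% and 0.417% of the UMIs of Bleo_Vehicle type II nuclei and 0.637% to 0.898% elsewhere, and 22.0%, 20.2% and 7.16% of Bleo_Vehicle type II nuclei sat at exactly 3 UMIs, against 2.73% to 6.65% elsewhere. The median mitochondrial share was 1.97%, 0.985% and 0.649% in Bleo_Vehicle type II nuclei and at most 0.0496% elsewhere. At least 3 UMIs over at least 2 markers of another cell class were found in 62.7%, 50.4% and 59.2% of Bleo_Vehicle type II nuclei, in 11.2% to 51.8% of those from PBS_Vehicle, in 9.86% to 41.3% from PBS_NVP-BHG712 and in 6.85% to 15.7% from Bleo_NVP-BHG712. Sftpc, a surfactant gene, at 53.1 to 114 CPM (UMI counts scaled to an equal total) in the other nuclei of 9 libraries, stood at 191, 1069 and 1012 CPM in the other nuclei of Bleo_Vehicle, and whether this was free RNA or RNA of type II nuclei that missed the rule was not tested. The labels give the Bleo_Vehicle libraries batch numbers 6, 6 and 7, the Bleo_NVP-BHG712 libraries run number 4 and the PBS libraries run numbers 1 to 3, which means that for each bleomycin group the effects of batch and of treatment cannot be told apart. Changes are therefore given first for all type II nuclei and then for a restricted set, the nuclei that met a stricter rule (at least 5 UMIs over at least 3 of the 6 genes) and did not carry markers of another class as defined above. The restricted set held 8, 138 and 687 nuclei in Bleo_Vehicle, with 22376 UMIs in replicate 1, and 116 to 550 nuclei in each of the other libraries. It did not remove the gap. The 6 genes made up 0.626%, 0.531% and 0.617% of its UMIs in Bleo_Vehicle and 0.827% to 1.14% elsewhere. Against PBS_Vehicle, mitochondrial mt-Co1 was still at a log2 change of 3.77 (edgeR adjusted p = 8.9e-16). The endothelial markers Calcrl and Egfl7, at 1.42 and -1.58, were among the markers that left nuclei out of this set. Their values there are a description and not a test.

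The type II label was checked with 14 products of type II cells that the rule did not use. All 14 were higher in type II nuclei than in the other nuclei of the same library in all 12 libraries, with a lowest ratio of 1.85. Detection was then counted in nuclei with at least 1000 UMIs, each thinned to 1000. Sftpc, which encodes surfactant protein C, was seen in 75.8% to 83.4% of PBS_Vehicle type II nuclei and 5.33% to 8.91% of other nuclei. In Bleo_Vehicle it was seen in 66.04% to 88.6% against 14.1% to 62.0%. Cxcl15, a chemokine of lung epithelium, was seen in 42.6% to 45.0% against 0.512% to 1.45% in PBS_Vehicle and in 18.7% to 30.2% against 1.43% to 5.78% in Bleo_Vehicle. The genes highest in type II over other nuclei, a description of the nuclei chosen and not a test, were led by Lamp3 and Slc34a2 of the rule with mean log2 ratios of 6.42 and 6.10, and outside the rule and predicted genes by Prmt8 (5.82), Hc (5.8), Tmem132d (5.5), Egfl6 (5.45) and Il33 (5.27). Of the 6 genes of the rule, which are given without a test, Slc34a2, the phosphate transporter of type II cells, averaged 2582, 2446, 1376 and 2749 TMM-scaled CPM in PBS_Vehicle, PBS_NVP-BHG712, Bleo_Vehicle and Bleo_NVP-BHG712, and Lamp3, a lamellar body protein, averaged 1392, 1440, 583 and 1886.

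**Figure D1:**
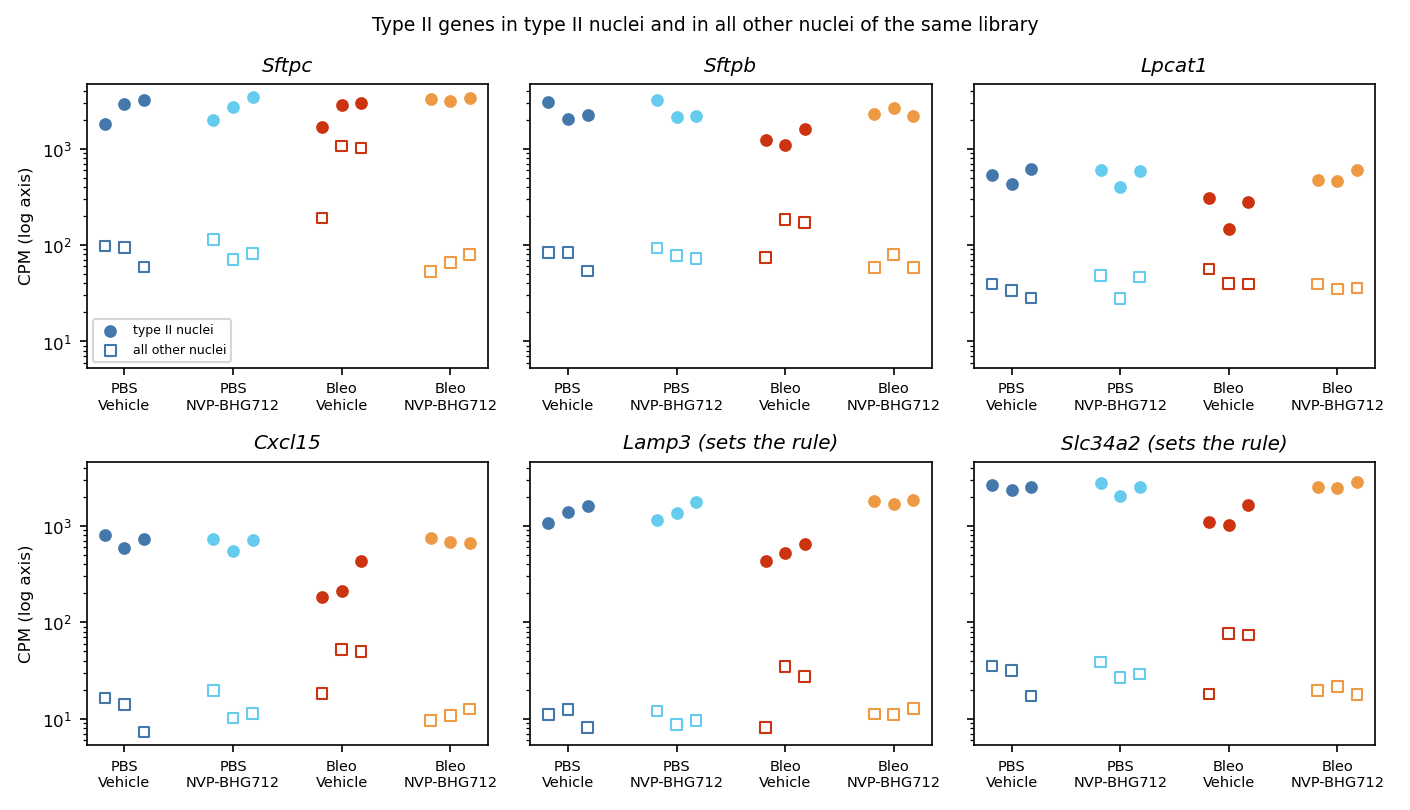
Levels of 6 type II genes in each library, in CPM on a log axis without TMM scaling (Sftpc, Sftpb, Lpcat1, Cxcl15, and Lamp3 and Slc34a2, which set the rule). Filled circles are the sums of type II nuclei and open squares the sums of all other nuclei of the same library: Sftpc in other nuclei reached 191 to 1069 CPM in Bleo_Vehicle and stayed at 53.1 to 114 CPM in the other groups.

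The start regions of 4 products that were lower in Bleo_Vehicle are shown because the results below turn on them: Sftpb (surfactant protein B), Egfl6 (a secreted protein with EGF repeats), Lpcat1 (an acyltransferase that makes surfactant phosphatidylcholine) and Cxcl15. The sequences are from RefSeq on GRCm38.p6, run from 250 bases before to 50 bases after the start, and are written 5′ to 3′ along the gene, with capitals marking the consensus GCNCTNNAG of NKX2-1, a transcription factor of lung epithelium, on either strand.
Sftpb (chr6:72304360-72304659, plus strand): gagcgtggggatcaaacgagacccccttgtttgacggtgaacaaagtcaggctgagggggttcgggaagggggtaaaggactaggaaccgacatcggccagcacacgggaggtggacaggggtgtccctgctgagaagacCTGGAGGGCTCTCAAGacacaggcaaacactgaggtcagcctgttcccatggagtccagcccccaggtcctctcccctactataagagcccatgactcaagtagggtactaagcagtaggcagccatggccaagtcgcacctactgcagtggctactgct
Egfl6 (chrX:166585667-166585966, minus strand): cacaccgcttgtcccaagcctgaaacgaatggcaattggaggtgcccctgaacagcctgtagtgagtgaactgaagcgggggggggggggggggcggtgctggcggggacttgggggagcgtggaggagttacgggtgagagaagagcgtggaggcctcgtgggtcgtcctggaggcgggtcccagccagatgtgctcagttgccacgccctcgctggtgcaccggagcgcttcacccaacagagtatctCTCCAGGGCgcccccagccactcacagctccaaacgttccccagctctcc
Lpcat1 (chr13:73466981-73467280, plus strand): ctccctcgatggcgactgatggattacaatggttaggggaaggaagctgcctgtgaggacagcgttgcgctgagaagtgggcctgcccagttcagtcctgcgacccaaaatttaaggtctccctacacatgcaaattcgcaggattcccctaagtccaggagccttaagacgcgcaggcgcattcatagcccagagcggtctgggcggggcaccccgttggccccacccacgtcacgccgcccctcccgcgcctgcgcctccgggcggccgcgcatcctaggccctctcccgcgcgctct
Cxcl15 (chr5:90794284-90794583, plus strand): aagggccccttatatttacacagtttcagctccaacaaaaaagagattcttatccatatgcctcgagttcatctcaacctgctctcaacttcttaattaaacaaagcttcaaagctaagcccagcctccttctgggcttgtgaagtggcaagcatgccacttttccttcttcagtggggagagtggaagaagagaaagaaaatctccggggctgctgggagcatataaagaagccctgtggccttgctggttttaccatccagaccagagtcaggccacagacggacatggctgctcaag
Sftpb held 2 matches on opposite strands, starting 110 and 103 bases before the start and sharing 2 letters, Egfl6 held 1 match at the start itself, and Lpcat1 and Cxcl15 held none in these windows. A match is held by 5734 of all 32851 promoters of that length (17.5%), and of the 17 promoters found for 15 of 20 type II genes looked up, 4 held one. A match is a description of letters and not of binding.

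The share of type II nuclei among all nuclei did not separate the groups. It was 12.8%, 8.07% and 12.8% in PBS_Vehicle, 10.99%, 8.83% and 12.1% in PBS_NVP-BHG712, 2.59%, 7.65% and 14.5% in Bleo_Vehicle, and 12.4%, 9.33% and 11.4% in Bleo_NVP-BHG712. Bleo_Vehicle libraries were the most spread, with both the lowest and the highest share of all 12. The mean was -2.95 percentage points different in Bleo_Vehicle from PBS_Vehicle and 2.77 points higher in Bleo_NVP-BHG712 than in Bleo_Vehicle (two-sided exact permutation p = 0.6 for each, adjusted 0.8 over 5 comparisons), and with 3 against 3 libraries the smallest p is 0.1. Leaving out 1 library moved the first difference between -6.08 and -0.118 points and the second between -0.0569 and 5.90 points, with the values nearest 0 reached without Bleo_Vehicle replicate 1. Thinning every nucleus to 500 UMIs before applying the rule left 7.88% ± 1.83 (SD, n = 3) type II nuclei in PBS_Vehicle, 7.31% ± 1.97 in PBS_NVP-BHG712, 2.84% ± 2.54 in Bleo_Vehicle and 7.92% ± 1.44 in Bleo_NVP-BHG712. At that depth all 3 Bleo_Vehicle shares lay below those of PBS_Vehicle and of Bleo_NVP-BHG712 (exact permutation p = 0.1 for each, adjusted 0.25). At 1000 UMIs, where nuclei with fewer UMIs were left out, the groups overlapped. Because the rule counts UMIs of 6 genes, fewer type II nuclei and fewer of these UMIs per nucleus cannot be told apart in a thinned share.

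**Figure D2:**
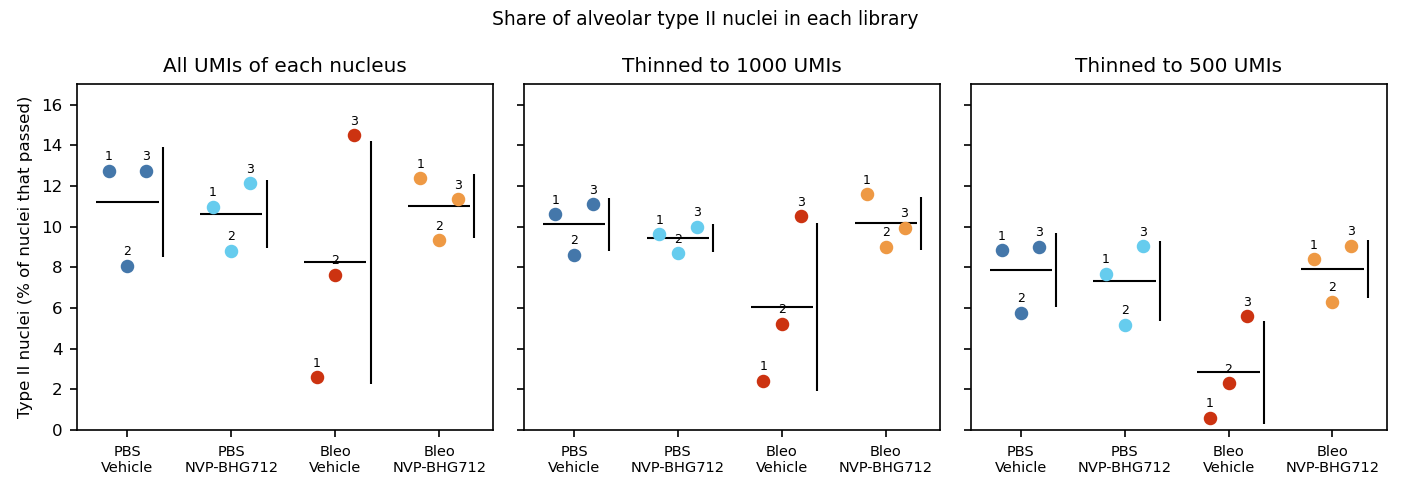
Share of type II nuclei among nuclei that passed the filters, in percent, for each library in 4 groups of 3, with all UMIs and with nuclei thinned to 1000 or 500 UMIs. Nuclei with fewer UMIs than that depth were left out. Points are libraries, lines means and vertical bars SDs: the 4 groups overlap with all UMIs, and at 500 UMIs the Bleo_Vehicle libraries, at 2.84% ± 2.54, lie below those of PBS_Vehicle and Bleo_NVP-BHG712 and overlap with PBS_NVP-BHG712.

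Bleo_Vehicle was compared with PBS_Vehicle to ask what bleomycin changed in type II nuclei. UMIs were summed over the type II nuclei of each library, and levels below are CPM on TMM-scaled library sizes (the trimmed mean scaling of edgeR). Of 7090 genes tested, of 31053 listed, 223 were called at an adjusted p under 0.05 with edgeR's quasi-likelihood test (3.15%): 111 were higher (1.57%) and 112 lower (1.58%) in Bleo_Vehicle. The genes that fell were mostly type II genes, 2 of the 112 lying lower in type II than in other nuclei of PBS_Vehicle. Of the 111 that rose, 66 were more abundant in the other nuclei of Bleo_Vehicle. By means over all 4 groups, an unlike measure, 40.3% of all genes tested were more abundant in other nuclei. In the restricted set 122 genes were called, of which 82 were called in the same direction among all type II nuclei.

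Of the 14 type II products, 5 fell and none rose, beside 1.58% of all genes called lower (median log2 change -0.53, beside -0.01 over all genes tested). The members that fell were Sftpb, Cxcl15, Egfl6, Lgi3 and Lpcat1. Sftpb (chr6:72304610-72314371 on GRCm38, as are all positions given) was at 2987, 2170 and 2327 CPM in PBS_Vehicle and at 1430, 1202 and 1657 CPM in Bleo_Vehicle. The groups did not overlap, as for 23.2% of all genes tested, and the log2 change was -0.80 ± 0.20 (SE, edgeR adjusted p = 0.0392). Lpcat1 (chr13:73467197-73516422) was at 512, 454 and 632 CPM against 364, 163 and 287 CPM. All Bleo_Vehicle libraries lay below all PBS_Vehicle libraries (log2 change -1.02 ± 0.25, edgeR adjusted p = 0.0355). Cxcl15 (chr5:90794534-90803067) was at 781, 623 and 756 CPM against 215, 232 and 445 CPM, again without overlap (log2 change -1.23 ± 0.23, edgeR adjusted p = 0.0103). Egfl6 and Lgi3, a secreted protein of the LGI family, changed by log2 -1.18 ± 0.24 and -0.96 ± 0.22 (edgeR adjusted p = 0.015 and 0.0276). In the restricted set Lpcat1 still fell (log2 change -0.88, edgeR adjusted p = 0.0103), while Cxcl15, Egfl6, Lgi3 and Sftpb were at log2 changes of -0.70, -0.75, -0.56 and -0.33 with edgeR adjusted p = 0.0539, 0.166, 0.283 and 0.626.

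The other surfactant proteins were not called. Sftpc (chr14:70520949-70524081) was at 1732, 3085 and 3353 CPM in PBS_Vehicle and at 1976, 3134 and 3076 CPM in Bleo_Vehicle, with overlapping groups and a log2 change of 0.01 ± 0.27 (edgeR adjusted p = 0.996). Sftpa1 and Sftpd, the collectins of surfactant, were at log2 changes of -0.11 ± 0.23 and -0.37 ± 0.18 (edgeR adjusted p = 0.885 and 0.318). Napsa, a protease that matures surfactant protein B, was at -0.24 ± 0.18, Hc (complement C5) at -0.34 ± 0.49 and Il33, an alarmin, at -1.10 ± 0.56, with edgeR adjusted p of 0.586, 0.823 and 0.354. The spread of Hc was wide in Bleo_Vehicle, where its libraries held 359, 837 and 2043 CPM.

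Genes of lipid synthesis moved in part. Among 17 tested genes of surfactant lipid and fatty acid synthesis, of 24 listed, 2 fell and none rose, beside 1.58% of all genes called lower (median log2 change -0.26). Gpam (chr19:55067268-55127238), the mitochondrial acyltransferase that starts glycerolipid synthesis, was at 169, 240 and 195 CPM in PBS_Vehicle and 27.6, 76.2 and 99.7 CPM in Bleo_Vehicle, without overlap (log2 change -1.34 ± 0.27, edgeR adjusted p = 0.0134). Elovl1 (chr4:118428093-118432953), a fatty acid elongase, was at 141, 100 and 182 CPM against 71.8, 34.5 and 39.0 CPM, also without overlap (log2 change -1.76 ± 0.42, edgeR adjusted p = 0.0396). Both also fell in the restricted set, Gpam by 1.13 (edgeR adjusted p = 0.00593) and Elovl1 by 1.65 (edgeR adjusted p = 0.0371) on the log2 scale. Fasn and Scd1, of fatty acid synthesis and desaturation, were at log2 changes of 0.00 and 0.77 and were not called. Of 15 tested genes of cholesterol synthesis and uptake none was called, and 14 of the 15 had a negative log2 change (median -0.39).

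Receptors and regulators of the type II state were next. Fgfr2 (chr7:130162451-133123350), the receptor for the mesenchymal fibroblast growth factors that maintain type II cells, was at 1160, 1373 and 1813 CPM in PBS_Vehicle and at 287, 433 and 733 CPM in Bleo_Vehicle. The groups did not overlap (log2 change -1.53 ± 0.29, edgeR adjusted p = 0.0123), and Fgfr2 fell in the restricted set as well (-1.24, edgeR adjusted p = 0.000956). It was the only 1 of 16 tested genes of niche signaling, of 28 listed, that was called, beside 3.15% of all genes (median log2 change -0.25). Of 13 tested type II transcription factors 2 fell and none rose, beside 1.58% of all genes called lower (median -0.56): Irx2, an Iroquois homeobox factor, at 84.6, 117 and 162 against 77.3, 42.4 and 57.9 CPM (log2 change -1.09 ± 0.28, edgeR adjusted p = 0.0497), and Rbpjl, a relative of the Notch effector RBPJ, at 209, 230 and 253 against 82.8, 113 and 123 CPM (-1.04 ± 0.18, edgeR adjusted p = 0.00738). Neither Irx2 nor Rbpjl was called in the restricted set (edgeR adjusted p = 0.144 and 0.295). Nkx2-1, which directs surfactant gene expression, was at 249, 276 and 435 CPM against 287, 254 and 300 CPM, with overlapping groups (log2 change -0.17 ± 0.31, edgeR adjusted p = 0.873).

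The largest named falls included genes that were far higher in type II than in other nuclei, though the rule did not use them. Pik3c2g (chr6:139587221-139969284), a class II phosphoinositide 3-kinase, was at 210, 188 and 205 CPM in PBS_Vehicle and 71.8, 38.1 and 59.0 CPM in Bleo_Vehicle, with a mean of 3.80 CPM in the other nuclei of PBS_Vehicle. Its log2 change was -1.93 ± 0.21 (edgeR adjusted p = 0.00089) and -1.50 in the restricted set (edgeR adjusted p = 6.96e-05), without overlap. Cpm (carboxypeptidase M) went from 594, 468 and 779 to 88.3, 133 and 245 CPM, and Cadm2, a cell adhesion molecule, from 261, 429 and 468 to 60.7, 99.3 and 129 CPM. Neither overlapped between groups, with log2 changes of -1.86 ± 0.30 for Cpm and -1.86 ± 0.26 for Cadm2 (edgeR adjusted p = 0.00629 and 0.00297). Abca17, an ABC transporter next to Abca3 and on the opposite strand, fell by 2.12 ± 0.31 on the log2 scale (edgeR adjusted p = 0.00297) and Gpt, an alanine aminotransferase, by 2.34 ± 0.57 (edgeR adjusted p = 0.0383), and both fell in the restricted set, Abca17 by 1.53 and Gpt by 1.94. Mesp1 and Cthrc1 fell from 10.5 to 29.4 CPM and from 12.5 to 26.2 CPM in PBS_Vehicle to at most 4.97 and 6.51 CPM in Bleo_Vehicle, on few UMIs. Bub1 (chr2:127801122-127831865), a mitotic checkpoint kinase and 1 of only 3 proliferation genes with enough UMIs to be tested, was at 17.99, 71.1 and 25.3 CPM against 0, 4.32 and 5.09 CPM (log2 change -2.94 ± 0.68, edgeR adjusted p = 0.0311). It lies next to Acoxl of the rule, which was at 1931, 1551 and 999 against 110, 124 and 387 CPM.

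**Figure D3:**
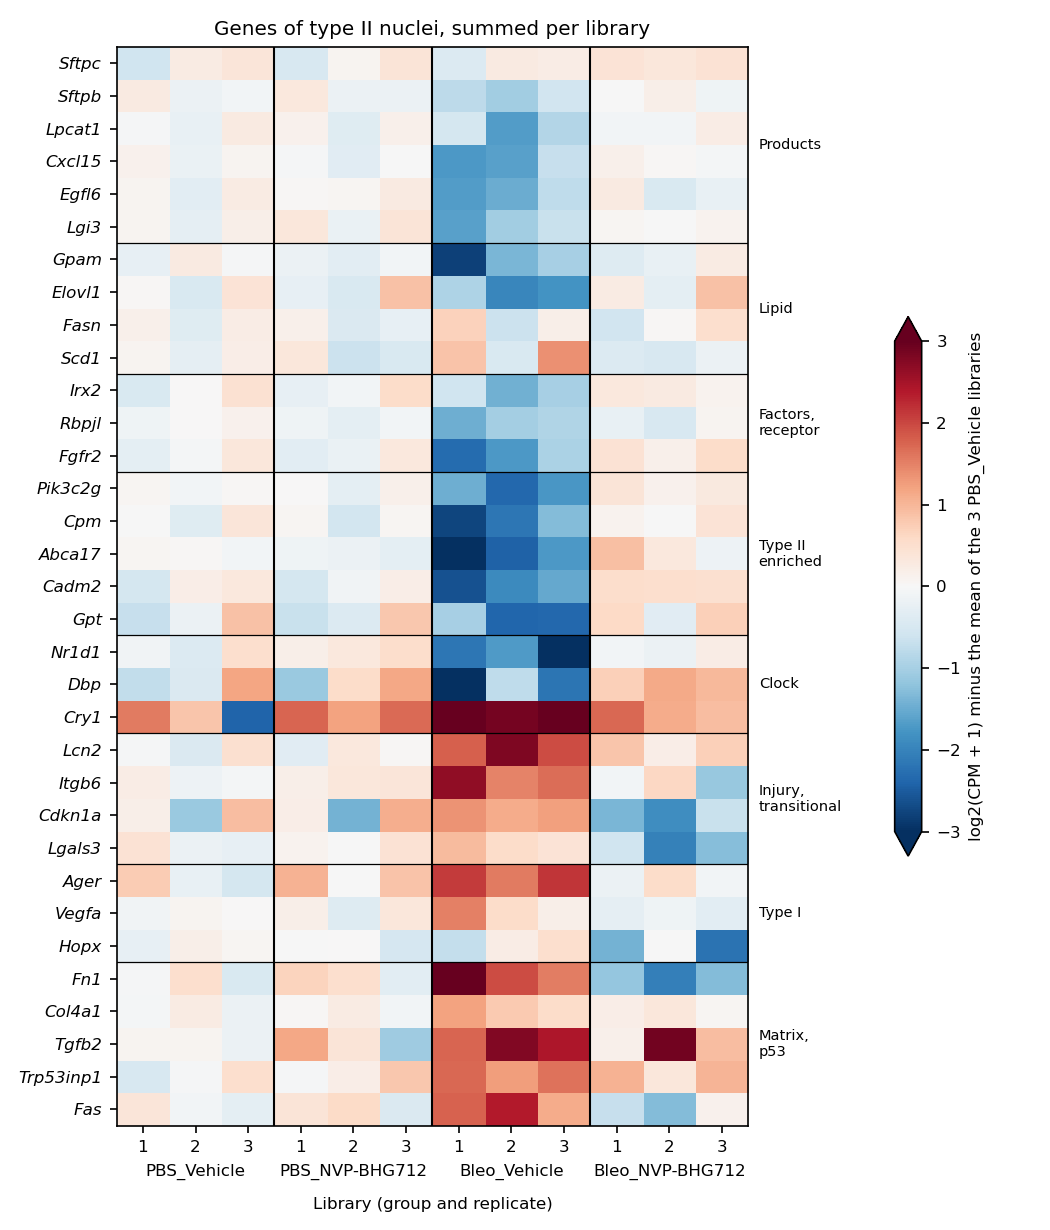
Heat map of genes of the main groups in the type II nuclei of each library. Color gives log2(CPM + 1) minus the mean of PBS_Vehicle, from -3 to 3: the 3 Bleo_Vehicle columns are lower for Fgfr2, Gpam, Lpcat1 and Pik3c2g and higher for Ager, Itgb6, Lcn2 and Fn1 than the PBS_Vehicle and Bleo_NVP-BHG712 columns.

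Of 13 tested transitional genes, of 24 listed, 1 was called, beside 1.57% of all genes called higher, and all 13 had a positive log2 change (median 1.05). Itgb6 (chr2:60598292-60722643), the integrin subunit that activates latent TGF-beta, was at 24.6, 18.8 and 20.2 CPM in PBS_Vehicle and at 138, 61.1 and 69.2 CPM in Bleo_Vehicle. The groups did not overlap, and the rise also held in the restricted set (log2 change 1.87 ± 0.37, edgeR adjusted p = 0.0127, and 1.28, edgeR adjusted p = 0.0474). Areg, of the same list, was not called among all type II nuclei but rose in the restricted set (2.45, edgeR adjusted p = 2.29e-05). Krt8, the keratin that gives the state its usual name, was at 16.4, 14.6 and 17.7 against 38.6, 18.7 and 24.5 CPM (log2 change 0.58 ± 0.35, edgeR adjusted p = 0.45). Of 14 tested type I genes, 1 was called (median 0.70): Ager (chr17:34597862-34600936), a receptor abundant in type I cells, at 38.5, 18.8 and 15.2 against 99.4, 67.6 and 102 CPM, without overlap (log2 change 1.68 ± 0.35, edgeR adjusted p = 0.0176, and 1.52 in the restricted set, edgeR adjusted p = 0.0197). Hopx, also a type I gene, was at a log2 change of 0.26 ± 0.37 (edgeR adjusted p = 0.813).

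Of 6 tested injury genes 2 rose, of 11 profibrotic ligands and matrix genes 4 and of 13 p53 targets 2, beside 1.57% of all genes. Lcn2 (chr2:32384633-32388252), the iron-sequestering lipocalin of injured epithelium, was at 8.52, 6.27 and 12.6 CPM in PBS_Vehicle and at 33.1, 66.9 and 37.0 CPM in Bleo_Vehicle, without overlap (log2 change 2.42 ± 0.40, edgeR adjusted p = 0.00568), and rose in the restricted set (1.81, edgeR adjusted p = 0.0372). Hp (haptoglobin) was the other of 6 tested injury genes called (median 0.71), at 19.9, 35.5 and 27.8 against 88.3, 56.1 and 53.005 CPM, with a log2 change of 1.23 ± 0.31 (edgeR adjusted p = 0.0391) that was 0.77 in the restricted set (edgeR adjusted p = 0.622). Among 11 tested profibrotic ligands and matrix genes 4 rose and none fell (median 0.74). Fn1 (fibronectin, chr1:71585520-71653200) was at 44.8, 64.8 and 32.9 against 530, 181 and 134 CPM (log2 change 2.42 ± 0.49, edgeR adjusted p = 0.0231), and Col4a1, of basement membrane, at 247, 305 and 228 against 602, 446 and 379 CPM (0.84 ± 0.19, edgeR adjusted p = 0.0244). Neither pair of groups overlapped, and both genes rose in the restricted set (edgeR adjusted p = 0.0106 for Fn1 and 0.0402 for Col4a1). Tgfb2 rose by 2.60 ± 0.60 and Spp1 (osteopontin) by 5.25 ± 1.03 (edgeR adjusted p = 0.0302 and 0.0244), and neither had enough UMIs to be tested in the restricted set. Spp1 is also among the macrophage markers that left nuclei out of that set. Spp1 was at 558, 113 and 53.1 CPM in Bleo_Vehicle type II nuclei and at a mean of 224 CPM in the other nuclei of that group. Of 13 tested p53 targets 2 rose (median 0.67), Trp53inp1 at 30.3, 41.8 and 60.7 against 144, 103 and 134 CPM (log2 change 1.60 ± 0.30, edgeR adjusted p = 0.0103, and 1.98 in the restricted set) and the death receptor Fas (1.75 ± 0.39, edgeR adjusted p = 0.0244), which was not tested in the restricted set.

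Nuclei with at least 1000 UMIs, each thinned to 1000, were also counted one by one. Transitional genes were seen in 31.4%, 26.04% and 26.2% of PBS_Vehicle type II nuclei, 33.2%, 27.2% and 35.8% in PBS_NVP-BHG712, 67.9%, 40.8% and 45.0% in Bleo_Vehicle and 22.3%, 31.1% and 32.0% in Bleo_NVP-BHG712. Bleo_Vehicle did not overlap with PBS_Vehicle or with Bleo_NVP-BHG712 (differences of 23.4 and -22.8 points, exact permutation p = 0.1 for each, the smallest possible, adjusted 0.286 over 20 comparisons). Without Bleo_Vehicle replicate 1, of which 53 type II nuclei held 1000 UMIs, the differences were 15.0 and -14.4 points. In the other nuclei of the same libraries the share was 58.2%, 46.7% and 49.6% in Bleo_Vehicle and 31.9% to 42.3% elsewhere. Type I genes outside the rule (5.26 and -9.67 points) and p53 targets (9.62 and -7.41 points) separated the same groups at the same exact permutation p. The p53 share was 40.9%, 36.1% and 41.8% in PBS_Vehicle and 50.9%, 48.5% and 48.3% in Bleo_Vehicle type II nuclei. In the other nuclei of the same libraries it was higher, at 50.1%, 47.4% and 46.4% and at 55.7%, 49.04% and 51.7%. The part of such background in the p53 difference was not tested. The transitional share exceeded that of other nuclei only in replicate 1 of Bleo_Vehicle, and that of no library in the other groups. In Bleo_Vehicle the type I share was 94.3%, 92.04% and 90.4% in type II and 77.4%, 87.9% and 86.9% in other nuclei. At 1000 UMIs an excess was not particular to that group. The type I share was 85.8%, 89.3% and 85.8% against 84.5%, 82.7% and 84.4% in PBS_Vehicle. In PBS_NVP-BHG712 it was 89.5%, 85.0% and 89.9% against 85.5%, 83.9% and 87.7%. In Bleo_NVP-BHG712 it was 82.5%, 84.7% and 80.5% against 87.1%, 82.1% and 86.9%. Thinned to 500 UMIs, the type I share exceeded that of other nuclei only in Bleo_Vehicle replicate 1 (86.4% against 61.2%). In Bleo_Vehicle replicates 2 and 3 it was 70.8% and 73.0% against 74.2% and 73.3%, and it was lower in every library of the other groups. Proliferation genes did not separate the groups, at 9.32%, 13.6% and 12.1% in PBS_Vehicle and 5.66%, 15.7% and 10.2% in Bleo_Vehicle.

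Some changes in Bleo_Vehicle were shared with all other nuclei. All 11 tested mitochondrially encoded genes rose (median log2 change 3.95): mt-Co1, a subunit of cytochrome oxidase, was at 91.2, 117 and 276 CPM in PBS_Vehicle and at 4162, 2305 and 1302 CPM in Bleo_Vehicle type II nuclei, beside 97.9 and 2035 CPM in the other nuclei. These groups did not overlap, and the change in type II minus that in other nuclei was -0.36 on the log2 scale (edgeR adjusted p = 0.841). Of 15 tested clock genes 2 rose and 1 fell, beside 1.57% of all genes called higher and 1.58% called lower (median 0.30). Nr1d1 (REV-ERB alpha, chr11:98767932-98775333) was at 26.2, 20.9 and 40.5 against 5.52, 7.91 and 1.78 CPM (log2 change -2.93 ± 0.52, edgeR adjusted p = 0.0072) and Cry1 at 14.5, 8.36 and 0 against 49.7, 37.4 and 50.2 CPM (2.13 ± 0.46, edgeR adjusted p = 0.0208). Nr1d1 and Cry1 moved alike in other nuclei, from means of 38.8 to 4.58 and 17.04 to 46.1 CPM, and the differences from type II nuclei were not called (edgeR adjusted p = 0.709 and 0.786). The time of day of collection was not tested. None of the 9 tested genes of the unfolded protein response, 10 immediate-early genes, 9 genes of antigen presentation and 4 interferon-stimulated genes was called, with median log2 changes of -0.15, 0.38, 0.40 and 0.23.

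Markers of other cell classes were measured in the same sums. Summed CPM of the 9 fibroblast markers was 288 to 488 in PBS_Vehicle, 202 to 487 in PBS_NVP-BHG712, 667 to 790 in Bleo_Vehicle and 262 to 427 in Bleo_NVP-BHG712 type II nuclei. For the 11 macrophage markers it was 26.8 to 551, 216 to 426, 505 to 1048 and 34.9 to 59.9 CPM in the same order, and for the 10 endothelial markers 517 to 1688, 364 to 1408, 1039 to 2484 and 298 to 1299 CPM. The 8 airway markers summed to 503 to 790, 605 to 1014, 658 to 1326 and 115 to 663 CPM, the 12 lymphocyte markers to at most 127 CPM in any library, and the 10 markers of mesothelium, pericytes and smooth muscle to at most 188 CPM. Bleo_Vehicle was thus highest for fibroblast markers without overlap with any group, and Bleo_NVP-BHG712 lay below both Bleo_Vehicle and PBS_NVP-BHG712 for macrophage markers. Called between Bleo_Vehicle and PBS_Vehicle were 1 of 5 tested fibroblast markers, Col1a2 (log2 change 1.99 ± 0.42, edgeR adjusted p = 0.0168), 1 of 6 macrophage markers, Spp1, and none of the 10 endothelial, 3 airway, 2 hemoglobin, 1 lymphocyte and 1 mesenchymal markers tested. Of all genes tested, 3.15% were called. Itgb6, Ager, Fn1 and Fas were themselves more abundant in the other nuclei of PBS_Vehicle, at means of 139, 66.3, 217 and 70.4 CPM, than in its type II nuclei. The part of these markers in the rises of Fn1, Spp1, Tgfb2, Itgb6, Ager and Fas was not tested beyond the restricted set, where Spp1, Tgfb2 and Fas were not tested.

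**Figure D4:**
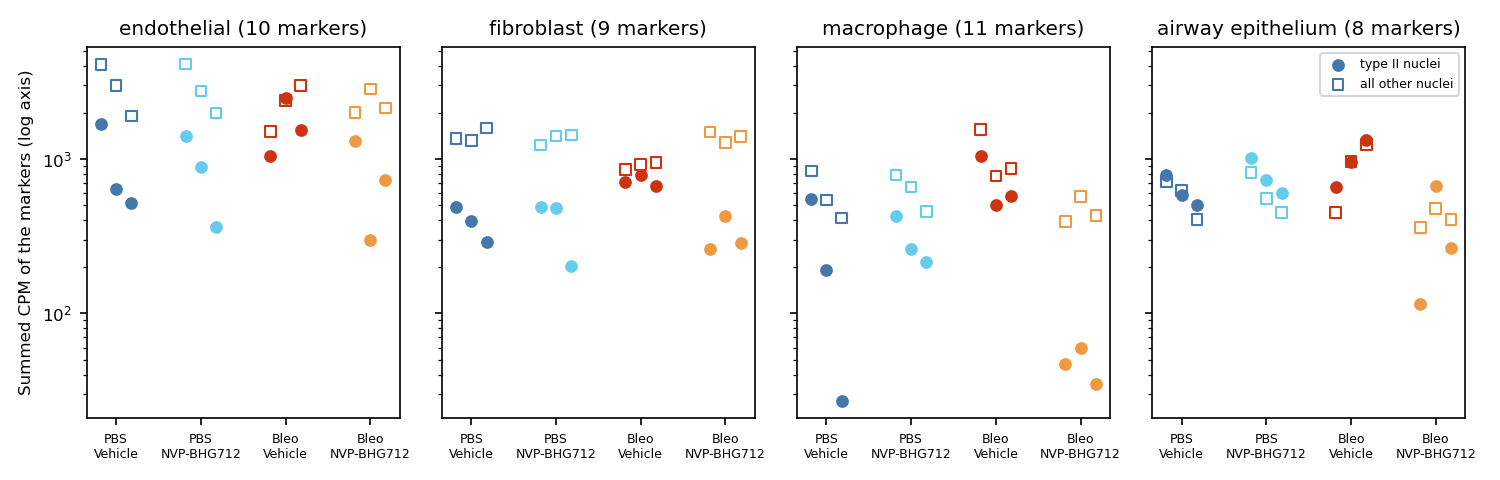
Summed CPM of endothelial (10), fibroblast (9), macrophage (11) and airway (8) markers in type II nuclei (filled) and in all other nuclei (open) of each library. In type II nuclei fibroblast markers reached 667 to 790 CPM in Bleo_Vehicle, and macrophage markers were at 34.9 to 59.9 CPM in Bleo_NVP-BHG712.

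To ask which changes differed between type II nuclei and the rest of the same lungs, both sums of each library were fitted together with the library as a block. Of 14078 genes, 312 changed differently between Bleo_Vehicle and PBS_Vehicle (2.22%), 129 more upward (0.916%) and 183 more downward (1.3%) in type II than in other nuclei, and 91 of them were also called in type II nuclei alone in the same direction. Called as more upward were 0 transitional, 0 injury and 0 profibrotic or matrix genes, 3 type I genes and 1 p53 target, and 1 injury gene was more downward. The rises of Itgb6, Lcn2, Hp, Fn1, Col4a1, Tgfb2 and Spp1 are thus not shown to be particular to type II nuclei. Fgfr2 and Gpam differed by -1.54 and -1.33 on the log2 scale (edgeR adjusted p = 0.00483 and 0.00996), their means in other nuclei being 259 and 238 CPM for Fgfr2 and 45.9 and 40.1 CPM for Gpam. Pik3c2g differed by -2.48 and Lpcat1 by -1.52 (edgeR adjusted p = 0.00027 and 0.00043). Sftpc differed by -2.96 (edgeR adjusted p = 0.0315) while its level in type II nuclei was not called and its mean in other nuclei went from 82.4 to 765 CPM. Egfl6 (-3.16) and Cxcl15 (-3.05) fell in type II nuclei while their means in other nuclei went from 1.77 to 6.00 and from 12.4 to 40.6 CPM. Bub1 (-3.56), Abca17 (-2.90) and Mlc1 (-2.95) completed the largest named falls. The largest named rises relative to other nuclei were Sntg1 (2.83), Cdh13 (2.69) and Rcan2 (2.62), a calcineurin regulator at 10.7, 6.27 and 5.06 CPM in PBS_Vehicle and 33.1, 54.7 and 77.6 CPM in Bleo_Vehicle type II nuclei that rose in the restricted set too (2.46, edgeR adjusted p = 0.000827). Sntg1, a syntrophin, was at 1.58, 4.18 and 0 CPM in PBS_Vehicle and 55.2, 33.8 and 38.2 CPM in Bleo_Vehicle type II nuclei, and this difference turned to -0.25 at 1000 UMIs and to -0.82 in the restricted set.

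Bleo_NVP-BHG712 was compared with Bleo_Vehicle to ask what the inhibitor changed after bleomycin, and since both comparisons share the Bleo_Vehicle libraries, opposite signs in them are not separate evidence. The edgeR test called 812 of 7090 genes (11.5%), of which 317 rose (4.47%) and 495 fell (6.98%) with the inhibitor. Of the 495 that fell, 381 were less abundant in type II than in other nuclei, and of the 317 that rose, 7. In the restricted set 96 genes were called, 77 of them called in the same direction among all type II nuclei. Without Bleo_Vehicle replicate 2 the count was 236, and without Bleo_NVP-BHG712 replicate 1, 2 or 3 it was 347, 358 or 382.

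Of the 14 type II products, 5 rose and none fell, beside 4.47% of all genes called higher (median log2 change 0.46, beside -0.00 over all genes tested). Sftpb was at 2450, 2812 and 2260 CPM in Bleo_NVP-BHG712, above the 1430, 1202 and 1657 CPM of Bleo_Vehicle without overlap (32.4% of genes tested did not overlap), with a log2 change of 0.81 ± 0.20 (edgeR adjusted p = 0.0182). Lpcat1 was at 498, 499 and 616 CPM, above the 364, 163 and 287 CPM of Bleo_Vehicle (log2 change 1.04 ± 0.25, edgeR adjusted p = 0.0165). Cxcl15 rose by 1.26 ± 0.23, Egfl6 by 1.05 ± 0.25 and Lgi3 by 0.99 ± 0.23 (edgeR adjusted p = 0.00534, 0.0157 and 0.0136). In the restricted set none of these 5 products was called, the log2 changes being 0.11 for Sftpb, 0.73 for Lpcat1, 0.60 for Cxcl15, 0.42 for Egfl6 and 0.32 for Lgi3 (edgeR adjusted p = 0.913, 0.0629, 0.129, 0.581 and 0.662). Sftpc was at 3453, 3320 and 3511 CPM, above all 3 Bleo_Vehicle libraries by a small margin and not called (log2 change 0.32 ± 0.27, edgeR adjusted p = 0.492).

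Of 17 tested lipid genes 3 rose and none fell (median log2 change 0.51, beside 4.47% of all genes called higher). Gpam was at 152, 170 and 238 CPM in Bleo_NVP-BHG712 against 27.6, 76.2 and 99.7 CPM in Bleo_Vehicle (log2 change 1.24 ± 0.27, edgeR adjusted p = 0.012), and Elovl1 at 162, 112 and 253 against 71.8, 34.5 and 39.0 CPM (2.06 ± 0.43, edgeR adjusted p = 0.012). Both were without overlap and were called in the restricted set (0.96 for Gpam and 1.72 for Elovl1, edgeR adjusted p = 0.0396 and 0.0385). Acsl5, an acyl-CoA synthetase, was the third lipid gene that rose (log2 change 0.66 ± 0.20, edgeR adjusted p = 0.0427), but its sign turned at 1000 UMIs (-0.07), and it was not called in the restricted set (0.05, edgeR adjusted p = 0.985). Cholesterol genes had 0 of 15 called (median 0.39). Fgfr2 was at 1916, 1572 and 2074 CPM, above the 287, 433 and 733 CPM of Bleo_Vehicle (log2 change 1.89 ± 0.29, edgeR adjusted p = 0.00246, and 1.38 in the restricted set, edgeR adjusted p = 0.000265). Fgfr2 was the 1 of 16 tested niche genes that rose. In the same list Egfr and Notch3 fell by 1.07 ± 0.33 and 1.94 ± 0.59 (edgeR adjusted p = 0.0442 and 0.0444), but Egfr was not called in the restricted set (-1.34, edgeR adjusted p = 0.0924) and Notch3 was not tested there, Egfr being more abundant in other nuclei (317 CPM) than in type II nuclei (36.3 to 84.2 CPM) of Bleo_NVP-BHG712. Notch3 is among the mesenchymal markers that left nuclei out of that set. Type II transcription factors had 4 of 13 higher and none lower (median 0.68), namely Irx2, Rbpjl, Foxp2 and Tfcp2l1, with log2 changes of 1.32, 0.85, 0.98 and 1.33. None of these 4 was called in the restricted set, and Rbpjl turned to -0.14 at 1000 UMIs.

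Among the largest rises were Tex11 (2.43 ± 0.42), Fstl4 (2.41 ± 0.34), Unc5d (2.40 ± 0.28), Cadm2 (2.34 ± 0.26) and Abca17 (2.52 ± 0.32), with edgeR adjusted p of 0.00534, 0.0014, 0.000302, 0.000302 and 0.00068. Unc5d (chr8:28646717-29219636), a netrin receptor, was at 11.04, 28.8 and 34.6 CPM in Bleo_Vehicle and at 152, 157 and 162 CPM in Bleo_NVP-BHG712, and Cadm2 at 60.7, 99.3 and 129 against 544, 528 and 520 CPM. Neither overlapped, and all 5 genes also rose in the restricted set, by 1.74, 2.09, 1.73, 1.81 and 1.63. Pik3c2g, at 264, 219 and 247 CPM in Bleo_NVP-BHG712, rose by 2.19 ± 0.22 (edgeR adjusted p = 0.000117) and by 1.52 in the restricted set. Fbn2 (fibrillin 2) rose by 2.93 ± 0.60 and Gpt by 2.69 ± 0.58 (edgeR adjusted p = 0.00793 and 0.012). The clock genes Dbp and Nr1d1 rose and Cry1 fell (log2 changes of 2.95, 2.91 and -1.94), again with differences from other nuclei that were not called (edgeR adjusted p = 0.63, 0.781 and 0.714).

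Of 13 tested transitional genes 5 fell and none rose (median log2 change -1.001), where 6.98% of all genes were called lower: Itgb6, Plaur (the urokinase receptor), Lgals3 (galectin 3), Anxa1 and Cdkn1a (p21). Itgb6 was at 19.8, 33.1 and 9.02 CPM against 138, 61.1 and 69.2 CPM in Bleo_Vehicle, without overlap (log2 change -1.90 ± 0.41, edgeR adjusted p = 0.0102, and -2.03 in the restricted set, edgeR adjusted p = 0.00465). In the restricted set Lgals3 and Anxa1 were not called (edgeR adjusted p = 0.306 and 0.117), and Plaur and Cdkn1a were not tested. Areg was not called among all type II nuclei but fell in the restricted set (-2.02, edgeR adjusted p = 0.000634). Plaur was at 0, 6.21 and 6.01 against 66.2, 53.2 and 29.6 CPM (-3.33 ± 0.68, edgeR adjusted p = 0.00801). Of 14 type I genes 3 fell (median -0.72), Ager, Vegfa and Pdpn, a sialoglycoprotein of type I cells. Vegfa was not called in the restricted set (-0.87, edgeR adjusted p = 0.0629) and Pdpn was not tested there. Ager was at 19.8, 33.1 and 21.0 CPM, below the 99.4, 67.6 and 102 CPM of Bleo_Vehicle (-1.80 ± 0.40, edgeR adjusted p = 0.0119, and -1.68 in the restricted set, edgeR adjusted p = 0.0255). Of 11 profibrotic and matrix genes 4 fell (median -0.95), among them Fn1, at 19.8, 10.3 and 18.03 CPM (-4.04 ± 0.62, edgeR adjusted p = 0.00342, and -2.96 in the restricted set), Spp1 (-5.28 ± 1.15) and Col4a1 (-0.64 ± 0.19). Col4a1 was not called in the restricted set (-0.62, edgeR adjusted p = 0.0923). Spp1, a marker used to leave nuclei out of that set, was not tested there. Lcn2 fell by 1.80 ± 0.43 as 1 of 6 injury genes (median -0.66), and Fas and Cdkn1a fell as 2 of 13 p53 targets (median -0.44), by 2.47 ± 0.47 and 2.75 ± 0.78 (edgeR adjusted p = 0.0148, 0.00574 and 0.0325). With 1 and 2 members called, beside 6.98% of all genes called lower, nothing is read about these lists. Lcn2 was not called in the restricted set (-1.77, edgeR adjusted p = 0.0859) and Fas was not tested there.

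**Figure D5:**
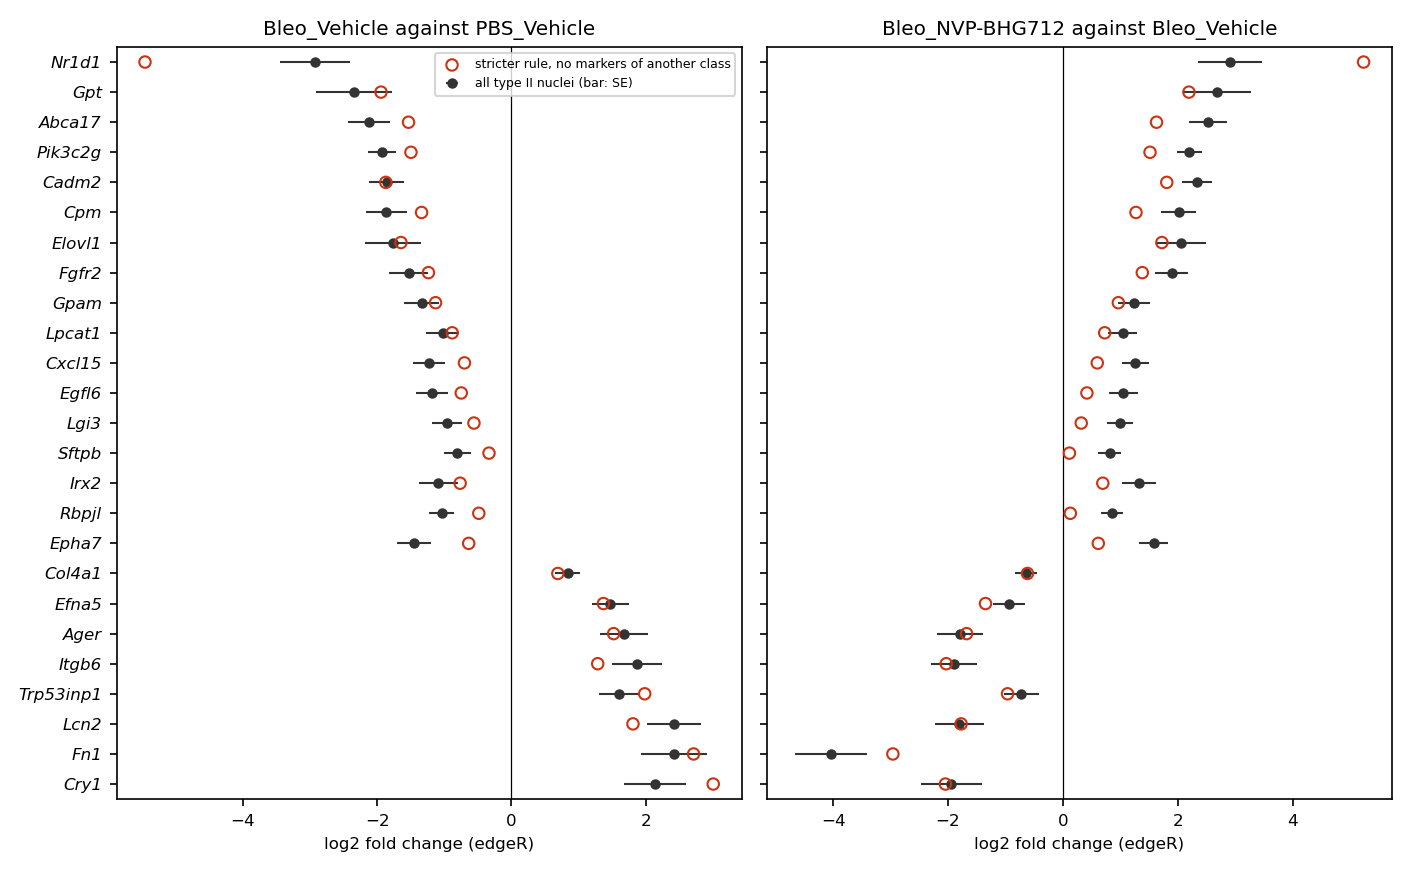
Log2 changes with their SE for named genes in Bleo_Vehicle against PBS_Vehicle and in Bleo_NVP-BHG712 against Bleo_Vehicle, for all type II nuclei (filled) and for the restricted set (open red). Fgfr2, Pik3c2g, Gpam and Ager keep their sign in both sets, and Sftpb moves from -0.80 to -0.33 and from 0.81 to 0.11.

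Among called genes with a mean of at least 10 CPM and no overlap, the 6 largest falls by fitted log2 change were Lcp2, Spi1, Ctss, Itga4, Dock11 and Pik3r5, all less abundant in type II than in other nuclei of Bleo_Vehicle. Lcp2 and Spi1, an adaptor and a transcription factor of myeloid cells, had no UMI in any Bleo_NVP-BHG712 library. That allows up to 2.54 CPM over the group's 1182393 type II UMIs. Pooled over its libraries, Bleo_Vehicle stood at 9.30 times that level for Lcp2 and 10.2 times for Spi1 (247 and 271 UMIs). These ratios do not cover the spread between mice. Ctss (cathepsin S) was at 0, 2.07 and 3.01 CPM against 132, 107 and 85.3 CPM, below the 32.5, 10.5 and 5.06 CPM of PBS_Vehicle too. Itga4, Dock11 and Pik3r5 had log2 changes of -5.68, -5.67 and -5.47. Of the marker lists, 5 of 6 tested macrophage markers (median -3.81), 4 of 5 fibroblast markers (median -2.56), 2 of 3 airway markers (median -2.24), and Notch3 as the 1 mesenchymal marker fell, with 0 of 10 endothelial (median -1.43), 0 of 2 hemoglobin and 0 of 1 lymphocyte markers called. Of all genes tested, 6.98% were called lower. All 11 tested mitochondrially encoded genes fell (median -4.02). The unfolded protein, immediate-early, proliferation, antigen presentation and interferon lists had 0 called, with medians of 0.09, -0.57, -0.13, -0.34 and -0.31.

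Relative to other nuclei, 720 of 14078 genes changed differently between Bleo_NVP-BHG712 and Bleo_Vehicle (5.11%), 221 more upward (1.57%) and 499 more downward (3.54%), of which 395 were also called in type II nuclei alone in the same direction. Fgfr2, Pik3c2g and Gpam differed by 1.78, 2.37 and 1.10 (edgeR adjusted p = 0.00104, 0.00045 and 0.0279), and Fn1 by -3.14 (edgeR adjusted p = 0.00251). Itgb6 and Ager did not differ beyond error from other nuclei (-1.39 and -0.50, edgeR adjusted p = 0.319 and 0.563). The largest named rises, Sftpc (3.58), Fbn2 (3.47), Napsa (3.27), Cxcl15 (3.17) and Tmem132d (3.11), include genes whose mean in other nuclei was lower in Bleo_NVP-BHG712 than in Bleo_Vehicle, Napsa at 4.13 and 30.2 CPM. Tmem132d, a membrane protein, was at 155, 465 and 632 CPM in Bleo_Vehicle and at 1804, 2023 and 1656 CPM in Bleo_NVP-BHG712 type II nuclei, without overlap.

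Without bleomycin, no gene was called between PBS_NVP-BHG712 and PBS_Vehicle with edgeR (0%), 55 having an unadjusted p under 0.05, and DESeq2 called 1. The groups did not overlap for 5.56% of genes tested. The 5 products that moved after bleomycin were level between them: Sftpb was at 3076, 2205 and 2196 CPM in PBS_NVP-BHG712 and 2987, 2170 and 2327 CPM in PBS_Vehicle, with log2 changes of -0.00 ± 0.20 for Sftpb, -0.02 ± 0.24 for Lpcat1 and -0.13 ± 0.23 for Cxcl15. Fgfr2 was at 1144, 1234 and 1779 against 1160, 1373 and 1813 CPM (log2 change -0.06 ± 0.28). A p that misses the threshold does not show that the groups were equal. With the same-numbered PBS libraries taken as pairs, the replicate block called 0 genes as well, and the run block called 1. No list had a member called, and the change in type II nuclei did not differ from that in other nuclei for any of 14078 genes (0%; 319 at an unadjusted p under 0.05).

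Bleo_NVP-BHG712 against PBS_NVP-BHG712 asks what bleomycin had left changed in treated lungs, and edgeR called 0 of 7090 genes (0%), with 417 at an unadjusted p under 0.05 and 1 called by DESeq2. In 12.7% of genes the groups did not overlap. Slc8a1, a sodium-calcium exchanger that is more abundant in other nuclei, had the smallest p, at 275, 231 and 155 CPM in PBS_NVP-BHG712 and 85.8, 112 and 90.2 CPM in Bleo_NVP-BHG712 (log2 change -1.21 ± 0.21, edgeR adjusted p = 0.265). Fgfr2, Sftpb, Gpam and Ager were at 0.42 ± 0.28, 0.01 ± 0.20, 0.09 ± 0.26 and -0.59 ± 0.41. Relative to other nuclei 1 gene differed (0.0071%). Fitted with only these 6 libraries, 20 genes were called, all lower in Bleo_NVP-BHG712.

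The effect of NVP-BHG712 differed between bleomycin and PBS for 85 genes in edgeR's interaction test (1.2%), 36 more upward (0.508%) and 49 more downward (0.691%) after bleomycin. Fgfr2 had an interaction of 1.95 ± 0.41 (edgeR adjusted p = 0.0395), Pik3c2g of 2.24 ± 0.29 (edgeR adjusted p = 0.00666) and Slco4c1, an organic anion transporter, of 2.16 ± 0.29 (edgeR adjusted p = 0.00689). Slco4c1 was at 486, 598 and 561 CPM in PBS_Vehicle, 434, 574 and 530 in PBS_NVP-BHG712, 110, 176 and 210 in Bleo_Vehicle and 900, 683 and 616 in Bleo_NVP-BHG712, so Bleo_Vehicle was lowest and Bleo_NVP-BHG712 highest without overlap. Of the lists, 1 of 14 products (Cxcl15, 1.39 ± 0.32, edgeR adjusted p = 0.0498), 1 of 16 niche genes (Fgfr2) and 1 of 10 Eph genes (Epha7) were higher, and Fn1 (-4.40 ± 0.80) and 7 of 11 mitochondrially encoded genes lower. Relative to other nuclei 217 genes had a called interaction (1.54%), 86 higher (0.611%) and 131 lower (0.931%), of which 52 were called in type II nuclei alone in the same direction.

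EphB4, the kinase that NVP-BHG712 inhibits, was low in type II nuclei. Ephb4 (chr5:137350109-137378669) was at 29.0, 18.8 and 27.8 CPM in PBS_Vehicle, 23.95, 12.7 and 18.3 in PBS_NVP-BHG712, 22.1, 48.2 and 22.2 in Bleo_Vehicle and 16.5, 20.7 and 18.03 in Bleo_NVP-BHG712, beside means of 26.1 to 34.6 CPM in other nuclei. No comparison was called, the log2 changes for Bleo_Vehicle against PBS_Vehicle and Bleo_NVP-BHG712 against Bleo_Vehicle being 0.31 ± 0.37 and -0.78 ± 0.42 (edgeR adjusted p = 0.764 and 0.259). Efnb2, which encodes its ligand ephrin B2, was at 37.6 to 70.8, 36.5 to 59.2, 38.6 to 87.8 and 18.6 to 66.1 CPM in the same order of groups, which overlapped, and was not called. Of 10 tested Eph receptors and ephrins 1 rose and 1 fell in Bleo_Vehicle (median 0.41), in the opposite directions to Bleo_NVP-BHG712 against Bleo_Vehicle (median -0.78). Of all genes tested, 3.15% were called in the first of these comparisons and 11.5% in the second. Epha7 (chr4:28813131-28967499), the family member with the clearest type II level, was at 419, 514 and 501 CPM in PBS_Vehicle, 380, 593 and 468 in PBS_NVP-BHG712, 121, 130 and 243 in Bleo_Vehicle and 482, 610 and 460 in Bleo_NVP-BHG712, against at most a mean of 14.8 CPM in other nuclei. Bleo_Vehicle lay below all other libraries (log2 change -1.45 ± 0.25 against PBS_Vehicle, edgeR adjusted p = 0.00629, and 1.58 ± 0.25 for Bleo_NVP-BHG712 against Bleo_Vehicle, edgeR adjusted p = 0.00246), though Epha7 was not called in the restricted set (-0.64 and 0.61, edgeR adjusted p = 0.15 and 0.162). Efna5, a GPI-anchored ephrin, went the other way, at 89.6, 66.9 and 93.6 CPM in PBS_Vehicle, 293, 194 and 233 in Bleo_Vehicle and 69.3, 116 and 177 in Bleo_NVP-BHG712, with log2 changes of 1.47 ± 0.27 and -0.94 ± 0.28 that were called in the restricted set too (edgeR adjusted p = 0.0233 and 0.0479).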

How the data were processed

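Nuclei of 12 frozen mouse lungs were profiled by 10x 3' single-nucleus RNA sequencing. The deposited counts are whole-number UMIs per gene and nucleus, made by the authors with Cell Ranger (7.2.0 in the file headers, 7.0 in the submitters' processing notes, which also name mm10 and Seurat 4.4.1). The study further applied DecontX, DoubletFinder and Harmony, which were not run here, so free RNA was not removed. Nuclei with 200 to 6000 genes and at most 5% mitochondrial UMIs were kept (13, 96 and 1739 barcodes fell to under 200 genes, over 6000 genes and the mitochondrial limit). Doublets were kept, with an alternative that leaves out the highest scrublet scores at 0.8% per 1000 nuclei. UMIs of type II nuclei, and of all other nuclei, were summed per library.

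Sums were tested with edgeR 4.0.16 (quasi-likelihood, TMM, filterByExpr, all 4 groups in 1 fit, biological coefficient of variation 0.229, Benjamini-Hochberg adjustment over all genes, threshold 0.05) in R 4.3.3 with limma 3.58.1, with DESeq2 1.42.0 as an alternative. Nuclei were handled in Python 3.11.15 with scanpy 1.11.5 and scipy 1.17.1. The 14 tested genes of the rule that chose the nuclei were left out of the counts of calls. Type II and other sums were compared in 1 model with the library as block. Shares were compared by exact permutation tests. Depth limits low genes, and intervals and floors (3 counts over a group) cover counting error only.

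The members and gene lists were chosen with earlier results of these data known. Genes named beyond the lists are the 6 largest changes each way among called genes with a mean of at least 10 CPM and no overlap between groups, the 8 largest among those at least as high in type II as in other nuclei, and the 5 largest differences from other nuclei, leaving out predicted genes and the rule's genes. Genes named outside this, such as Slc8a1 and Sgpp2, were chosen after their values were seen, and some list members are not reported here. Same-numbered PBS_Vehicle and PBS_NVP-BHG712 libraries deviated together (r = 0.554, 0.176 and 0.259), so these numbers were taken to pair the PBS groups. Other same-numbered pairs had r of -0.0802 to 0.165. The labels do not state a pairing, and PBS_Vehicle and PBS_NVP-BHG712 replicate 3 have run numbers 2 and 3. Gene positions are from GENCODE on GRCm38 (462 of 462 looked up by Ensembl ID). The scripts were tested on simulated counts. Alternatives covered the normalization, the low-count filter, DESeq2, blocks, thinning, doublets, stricter rules, free RNA and leaving out each library.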

Additional observations from a re-analysis of the deposited data

Results flagged for a closer look

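The effect of NVP-BHG712 differed between bleomycin and PBS lungs for 85 genes in type II nuclei by the edgeR interaction test, which flags every value here. Positive values mean a larger rise with the inhibitor after bleomycin than after PBS, as a log2 interaction. Among genes higher in type II than in other nuclei these were Abca17 2.71, Fstl4 2.56, Cadm2 2.5, Pik3c2g 2.24, Unc5d 2.24, Cpm 2.16, Slco4c1 2.16 and Fgfr2 1.95. Dock11 at -6.13, Ctss at -5.98, Itga4 at -5.38 and Fgr at -4.82 had negative interactions. Sntg1 was at -7.39, from 27.3, 1.59 and 2.28 CPM in PBS_NVP-BHG712 and 0, 0 and 6.01 CPM in Bleo_NVP-BHG712. The mitochondrially encoded genes were mt-Nd4l -5.58, mt-Co1 -4.32, mt-Co2 -4.06, mt-Co3 -3.95, mt-Nd1 -3.87, mt-Cytb -3.86 and mt-Nd4 -3.84, and AY036118, which is annotated as a noncoding RNA, was at -3.88. All of these interactions include the Bleo_Vehicle libraries, whose mitochondrial share and mean summed markers of 6 of 7 other classes (all but haemoglobin) were the highest of the 4 groups, and the part of these in the interactions was not tested. The number of called interactions rested on single libraries in every group. It was 7 without Bleo_Vehicle replicate 2 and 418 without replicate 3, 2, 11 and 6 without Bleo_NVP-BHG712 replicates 1, 2 and 3, 311, 12 and 29 without PBS_Vehicle replicates 1, 2 and 3, and 21, 9 and 133 without PBS_NVP-BHG712 replicates 1, 2 and 3. Without doublets it was 8.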

How the results depend on the processing

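Type II sums of 212729 to 8712281 UMIs limit the low genes, and 1 library often set the counts of calls. Of 170 gene results, 43 kept their direction and call in every alternative and 5 reversed in at least 1. The counts below follow the order Bleo_Vehicle against PBS_Vehicle (223 called), Bleo_NVP-BHG712 against Bleo_Vehicle (812), PBS_NVP-BHG712 against PBS_Vehicle (0), Bleo_NVP-BHG712 against PBS_NVP-BHG712 (0) and the interaction (85). The cause of each change was not tested, except that settings with fewer nuclei or UMIs hold fewer counts.

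With no filter on low counts 777, 1411, 23, 181 and 730 genes were called. DESeq2 called 341 in the first, 1 in the third, 1 in the fourth and 252 in the interaction. The replicate block gave 521 in the first, 1149 in the second and 331 in the interaction, where the numbers were not taken to pair the libraries. In the 6 PBS libraries, which they were taken to pair, the replicate block gave 0 and the run block 1. With only the groups compared the first, the second and the fourth had 39, 730 and 20. Without doublets the first, second and interaction had 103, 486 and 8, and at 1000 UMIs a nucleus 132, 142 and 43. Without nuclei holding markers of another class the second and interaction had 133 and 34, and the stricter rule alone gave 131 in the interaction. The stricter rule without such nuclei, chosen after seeing the data, as was the replicate block in the PBS libraries alone, gave 122, 96 and 41, of which 82 and 77 were shared with the 223 and 812.

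Leaving out 1 library at a time gave 44 to 593, 236 to 1077, 0 to 0, 0 to 4 and 2 to 418 calls. Without Bleo_Vehicle replicate 2 the first and second had 44 and 236, of which 44 and 234 were shared with the full data, and without replicate 3 they had 593 and 1077. Without Bleo_Vehicle replicate 1 the first had 141, and without PBS_Vehicle replicate 2 or 3 it had 89 or 85. Without Bleo_NVP-BHG712 replicate 1, 2 or 3 the second had 347, 358 or 382.

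For the difference between type II and other nuclei (312, 720, 0, 1 and 217 called), no filter gave 938, 1294, 37, 201 and 850. A floor of 500 UMIs a nucleus with a mitochondrial ceiling of 1% gave 172 in the first, 2 in the third, 2 in the fourth and 138 in the interaction. At 1000 UMIs the second, the fourth and the interaction had 266, 5 and 105. The stricter rule without other markers gave 109, 1, 2 and 7 in the last 4, and type I nuclei as comparator gave 142 in the interaction. Leaving out 1 library gave 101 to 461, 347 to 887, 0 to 12, 1 to 28 and 71 to 395.

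In the same order, with 6 bleomycin against 6 PBS libraries in place of the interaction, leaving out 1 library moved the difference in type II share between -6.08 and -0.118, -0.0569 and 5.90, -2.11 and 0.361, -0.535 and 1.22, and -2.26 and 0.122 percentage points. For nuclei with a UMI of p53 genes it lay between 7.87 and 10.7, -9.15 and -5.70, 2.40 and 5.803, -3.68 and -0.233, and 2.73 and 5.27. For proliferation genes it lay between -3.75 and 1.26, -3.28 and 1.73, 0.00474 and 3.67, -5.69 and -2.02, and -3.47 and -1.47. For transitional genes it lay between 15.0 and 28.6, -28.0 and -14.4, 2.28 and 6.60, -6.00 and -0.491, and 4.28 and 13.4. For type I genes it lay between 4.21 and 6.44, -10.75 and -8.61, 0.241 and 2.69, -7.10 and -4.47, and -1.52 and 1.25.

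Some differences in these shares reversed. At 500 UMIs in place of 1000 the third difference was -2.88 for transitional and -1.80 for type I genes, that of 6 against 6 libraries 2.55 for type I and 0.188 for proliferation genes, and the proliferation difference 0.231 in the first and 0.144 in the fourth. Without thinning the third was -1.51, -0.576 and -1.88 for transitional, type I and proliferation genes, and that of 6 against 6 was -1.50 for p53 genes. At 1000 UMIs the change from Bleo_Vehicle to Bleo_NVP-BHG712 was -0.0712 for Acsl5 and -0.14 for Rbpjl (log2). Against other nuclei, Sntg1 reversed in the first comparison to -0.25 at 1000 UMIs and to -0.82 under the stricter rule without other markers, where its interaction was 1.64 and Bmper in the second was 0.54.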

Other observations

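Sgpp2, a sphingosine phosphate phosphatase at means of 4.57 to 13.4 CPM in other nuclei and chosen after its values were seen, was at 349, 349 and 306 CPM in PBS_Vehicle, 144, 144 and 254 CPM in Bleo_Vehicle and 294, 430 and 325 CPM in Bleo_NVP-BHG712. Bleo_Vehicle did not overlap with either group (log2 changes of -0.84 ± 0.22 and 0.90 ± 0.22, edgeR adjusted p = 0.0497 and 0.0174).

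Chl1, a neural adhesion molecule, had no UMI in the type II nuclei of PBS_Vehicle, 7.21, 93.9 and 38.8 CPM in PBS_NVP-BHG712, 33.1, 51.1 and 12.2 CPM in Bleo_Vehicle and 3.298, 0 and 0 CPM in Bleo_NVP-BHG712. Pooled over the libraries of a group, Chl1 stood at 28.8 times the floor of 3 counts over PBS_Vehicle in PBS_NVP-BHG712 and at 22.9 times in Bleo_Vehicle. These ratios do not cover the spread between mice, and neither comparison was called by edgeR (adjusted p = 1 and 0.0693).

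Hif3a, a hypoxia-inducible factor, was at 7.26, 2.09 and 0 CPM in PBS_Vehicle, 127, 51.1 and 20.4 CPM in Bleo_Vehicle and 3.298, 2.07 and 0 CPM in Bleo_NVP-BHG712. It rose by 3.42 ± 0.78 and fell by 4.87 ± 1.13 on the log2 scale (edgeR adjusted p = 0.0304 and 0.0146), and its change did not differ beyond error from that of other nuclei (edgeR adjusted p = 0.0855 and 0.081).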
